A study of Mus musculus with 6 samples.

Results

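Foxa1, Foxa2 and Foxa3 were followed here in RNA from the pancreas of mouse embryos at embryonic day 12.5. These 3 of the 11023 genes named on the arrays were represented by 4 of 21888 probes, taken as every probe whose 1 gene symbol in the platform annotation was one of these names. Foxa1 and Foxa2 had 1 probe each, Foxa3 had 2, and all 4 probes had a value on all 6 arrays.

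The study set RNA labelled Sox4 knockout (homozygous Sox4-/- embryos, channel 2) against RNA labelled wild type (their Sox4 wild-type littermates, channel 1) on 6 arrays with 2 channels each. Sox4, of the SoxC family, binds DNA through a high-mobility-group domain, and per the labels the aim was a global view of expression changes in its absence. Per the label of arrays 1 and 2, pancreases were pooled into 2 groups before RNA isolation and the RNA was amplified linearly. The label of arrays 3 to 6 does not repeat this. The arrays may therefore be repeat hybridisations of 1 knockout pool and 1 wild-type pool, and p-values set the ratios against variation between arrays that may be purely technical. No source used here gives strain or embryo sex.

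Foxa proteins are forkhead transcription factors, once named hepatocyte nuclear factors 3 alpha, beta and gamma. They are called pioneer factors because they can bind their sites in closed chromatin and open them for other regulators. In the mouse, Foxa1 and Foxa2 are made throughout the gut endoderm and are jointly needed for pancreas growth and for expression of Pdx1, the master regulator of the pancreatic bud. Foxa2 also acts in the notochord and floor plate and in mature beta cells. Foxa3 appears later, from the hindgut forward to the liver border, and is best known for keeping liver genes active.

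The DNA just upstream of the gene starts is shown because the study removed a Sox factor and because Foxa1 and 1 Foxa3 probe lay on the same side of 0 below. Each run is the 250 bases before an annotated start in RefSeq's promoter table (build GRCm38.p6, strand -), written 5′ to 3′, with matches to 4 searched motifs in capitals. The Foxa1 window is chr12:57546112-57546361, the Foxa3 window chr7:19023540-19023789 and the Foxa2 window, for the first of its 3 annotated starts, chr2:148046970-148047219.
Foxa1: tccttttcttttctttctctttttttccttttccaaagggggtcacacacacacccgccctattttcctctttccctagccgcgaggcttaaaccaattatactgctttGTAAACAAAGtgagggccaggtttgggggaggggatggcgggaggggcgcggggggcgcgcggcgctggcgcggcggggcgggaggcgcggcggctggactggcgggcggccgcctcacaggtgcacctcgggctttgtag
Foxa3: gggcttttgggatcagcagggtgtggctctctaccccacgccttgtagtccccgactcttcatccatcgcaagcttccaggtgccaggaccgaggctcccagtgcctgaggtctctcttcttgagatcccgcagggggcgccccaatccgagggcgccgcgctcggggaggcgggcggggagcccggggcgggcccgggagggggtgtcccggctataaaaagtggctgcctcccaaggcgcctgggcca
Foxa2: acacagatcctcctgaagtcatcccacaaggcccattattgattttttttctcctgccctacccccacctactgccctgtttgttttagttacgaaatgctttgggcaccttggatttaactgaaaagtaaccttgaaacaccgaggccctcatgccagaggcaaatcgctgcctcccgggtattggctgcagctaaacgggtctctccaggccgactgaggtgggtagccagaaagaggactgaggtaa
Words bound by forkhead proteins were TGTTTAC, the classical core, and a variant of it, TGTTTGC. Words bound by Sox proteins were AACAAAG, the fuller form, and a shorter one, AACAAT. All were searched on either strand. The capitals in Foxa1 are a reverse-strand TGTTTAC that begins 141 bases before the start and an AACAAAG that begins 138 bases before it, so the forkhead word and the Sox word overlap. Among 32851 promoter windows of the same length, 3.17% held TGTTTAC and 5.03% held AACAAAG. The words share bases in Foxa1, so these are not separate matches, and the share of windows with the overlapping pair was not counted. The variant TGTTTGC was in 4.3% of windows and the shorter Sox word in 9.42%, and neither was in any Foxa window. The Foxa3 window and all 3 Foxa2 windows held none of the 4 words. These matches describe letters only. In the RefSeq annotation the Foxa1 gene (57540628 to 57548029 on chromosome 12) also reaches upstream of the start used here. The Foxa2 gene lies at 148042877 to 148046969 on chromosome 2 and the Foxa3 gene at 19013283 to 19023539 on chromosome 7, all 3 on the reverse strand.

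The deposited value is the log2 ratio of the 2 channels, read here as knockout over wild type. That direction is likely rather than settled: it rests on which RNA the labels put in which channel and on the titles, and no source used here gives the dyes. No array had the channels exchanged, so dye bias and a real difference cannot be told apart at any one probe. The files hold ratios with no level for either RNA, so neither the abundance of a Foxa mRNA nor the tissue's identity from its markers could be read. Each array was centred on its median, and limma's moderated test with Benjamini-Hochberg adjustment was run over all 21247 probes with values on at least 4 arrays. The Sox4 probes were near 0, at -0.0254 ± 0.25 and -0.0914 ± 0.13 (SD, n = 6 arrays; limma adjusted p 0.892 and 0.446), so they check neither the labels nor the direction. No source used here places them relative to the deleted part of Sox4.

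Of the 4 Foxa probes, 2 were past an adjusted p of 0.05, the Foxa1 probe and 1 of the Foxa3 probes, each with a mean under 0. Across all probes 3.53% were past it under 0 and 1.96% above 0. Foxa1 and this Foxa3 probe were 1.57-fold and 1.56-fold lower in the RNA labelled knockout if the ratio is knockout over wild type, and higher by the same folds if it runs the other way. The first reading is kept from here on. Foxa2 had a ratio nearer to 0 that did not pass, and the second Foxa3 probe was nearer still. In RNA from whole pancreas, fewer cells of a type and less RNA per cell cannot be told apart.

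Foxa1, at probe MMC02C05, had centred log2 ratios of -0.22, -1.15, -0.72, -0.58, -0.77 and -0.48 on arrays 1 to 6. Every array was under 0, array 2 was the lowest and array 1 the nearest to 0. The mean was -0.65 ± 0.31 (SD, n = 6), a 1.57-fold lower ratio with a limma adjusted p of 0.039 and a 95% interval of -0.95 to -0.36. Within single arrays the probe ranked low on each: 1.62% of all measured probes had a lower ratio on array 2, 3.21% on array 4, 3.44% on array 3 and 4.54% on array 5, against 8.87% on array 6 and 22.3% on array 1. Of the tested probes, 1.75% had a lower mean.

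Foxa3 was represented by a pair of probes made from different cDNA records in the platform annotation. At probe ZX-00125B11 the ratios were -0.39, -0.91, -0.64, -0.66, -0.58 and -0.69 on arrays 1 to 6. All arrays were under 0 and all but arrays 1 and 2 lay close together. The mean was -0.64 ± 0.17 (SD, n = 6), a 1.56-fold lower ratio with a limma adjusted p of 0.0233 and a 95% interval of -0.84 to -0.45, and 1.84% of tested probes had a lower mean. On single arrays between 2.65% and 8.8% of probes were lower.

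The other Foxa3 probe, MMC01G09, gave 0.049, -0.39, 0.083, 0.009, -0.24 and -0.42. Its arrays were split evenly around 0, with arrays 2, 5 and 6 under it. The mean was -0.15 ± 0.23 (SD, n = 6; limma adjusted p 0.346; 95% interval -0.38 to 0.0799), so the 2 probes gave different answers. ZX-00125B11 was lower than MMC01G09 on all 6 arrays, by -0.27 to -0.72 and by -0.49 ± 0.18 on average (exact two-sided sign-flip permutation test, p = 0.0312, the smallest that 6 arrays allow, in a comparison chosen after the values were seen). With each probe set against its own source plate, the mean difference was -0.38 (p = 0.0938 in the same exact test). No source used here says which transcript parts the probes cover. The mean of both probes was -0.40 ± 0.18, and in a fit with 1 value per gene Foxa3 had a limma adjusted p of 0.043.

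Foxa2, at probe MMC02C06, had ratios of 0.21, -0.47, -0.68, -0.24, -0.49 and -0.061. Array 1 was above 0 and the other arrays under it, array 6 only slightly. The mean was -0.29 ± 0.33 (SD, n = 6), with a limma adjusted p of 0.195 and a 95% interval of -0.59 to 0.0129, and 11.6% of tested probes had a lower mean. The interval takes in 0 as well as ratios nearly as low as the Foxa1 mean, so the arrays do not show that Foxa2 was unaltered.

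**Figure D1:**
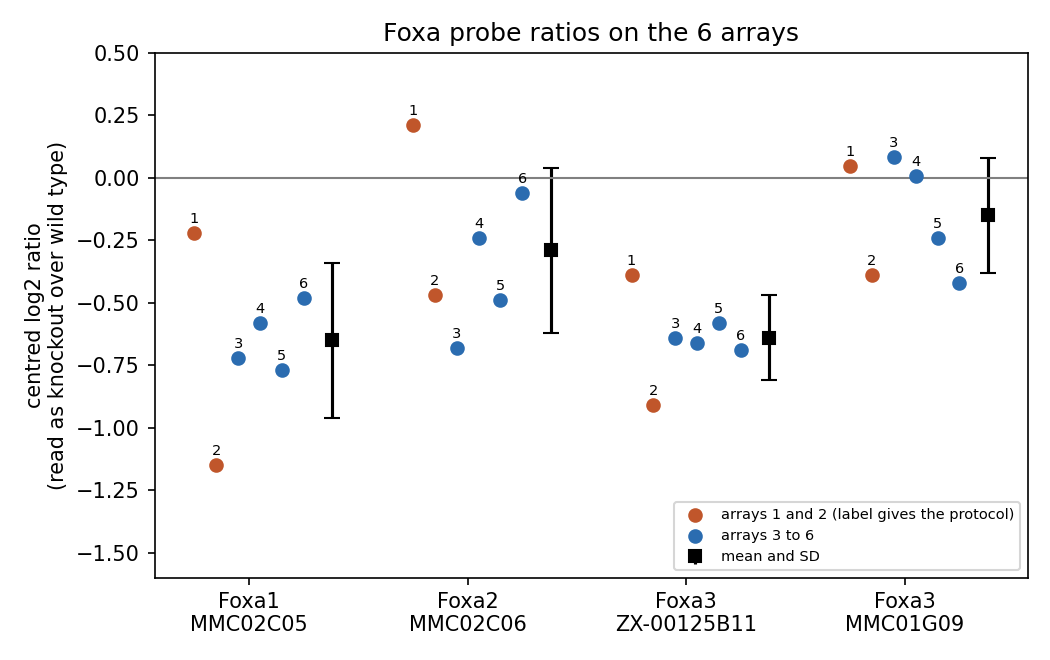
Centred log2 ratio (vertical axis, read as knockout over wild type) of each Foxa probe on each of 6 arrays (numbered points; arrays 1 and 2 in orange, 3 to 6 in blue), with the mean and SD as black squares. Every array was under 0 for Foxa1 and for the Foxa3 probe ZX-00125B11, while Foxa2 reached 0.21 and the Foxa3 probe MMC01G09 reached 0.083.

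Each probe was also tested by itself with an exact two-sided sign-flip permutation test. Foxa1 and the Foxa3 probe ZX-00125B11 each had p = 0.0312, the smallest that 6 arrays allow, and 0.0625 after adjustment over the 4 probes in this exact test, which is past the threshold for neither. Foxa2 had an exact p of 0.0938 and the Foxa3 probe MMC01G09 one of 0.25. A ratio under 0 on every array is in itself common: of 18178 probes measured on all arrays, 13.8% were under 0 on each.

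The 3 genes were compared with each other array by array, with the mean of both probes for Foxa3. Foxa1 was lower than Foxa2 on all 6 arrays, from -0.68 to -0.044, with a mean difference of -0.37 ± 0.21 (exact sign-flip permutation test, p = 0.0312, adjusted over 3 comparisons 0.0938). Foxa1 was lower than Foxa3 on 5 of 6 arrays, by -0.26 ± 0.23 on average (exact test, adjusted p = 0.141). Foxa3 was lower than Foxa2 on 4 of 6 arrays, by -0.11 ± 0.32 (exact test, adjusted p = 0.406). None of the 3 differences passed after adjustment. With 6 arrays this exact test cannot go under 0.0312, so 1 difference at that floor could pass only if another reached it too. The missing calls therefore do not show that the genes were alike. At the probes with the smallest p, Foxa1 and Foxa3 differed by -0.00967 ± 0.19, between -0.25 and 0.20 on single arrays. The order of the mean ratios was therefore Foxa1, Foxa3 and Foxa2 from the lowest up, with no neighbours in it that differed past the threshold. With each probe set against its own source plate, Foxa1 minus Foxa3 was -0.072 (exact test, adjusted p = 0.406) and Foxa3 minus Foxa2 was -0.29 (0.0938).

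Arrays 1 and 2, whose label gives the preparation, were set beside arrays 3 to 6. Foxa1 averaged -0.69 on arrays 1 and 2 and -0.64 on arrays 3 to 6, and the Foxa3 probe ZX-00125B11 averaged -0.65 and -0.64. The means of these probes were thus nearly the same in both sets. Foxa2 averaged -0.13 and -0.37, with its arrays 1 and 2 on opposite sides of 0, and the Foxa3 probe MMC01G09 averaged -0.17 and -0.14. With the array set as a term in the limma fit, the adjusted p was 0.0573 for Foxa1, no longer past the threshold, and 0.0404 for the Foxa3 probe ZX-00125B11. Arrays 3 to 6 alone gave an adjusted limma p of 0.0648 for each of them. With arrays 1 and 2 alone the 95% interval of Foxa1 took in 0, at -1.44 to 0.0646, and that of ZX-00125B11 was -1.23 to -0.069.

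The means moved little when 1 array was left out, while the calls were mostly lost. When any 1 of arrays 1, 3, 4, 5 and 6 was left out, neither probe stayed past the threshold: the limma adjusted p was 0.0651, 0.089, 0.091, 0.109 and 0.0996 for Foxa1 and 0.0534, 0.0654, 0.0735, 0.0783 and 0.0869 for the Foxa3 probe ZX-00125B11. Without array 2 both passed, at 0.043 and 0.0313. The means stayed between -0.74 and -0.56 for Foxa1 and between -0.70 and -0.59 for that Foxa3 probe. The same step took the number of probes past the threshold on the whole array down to between 10 and 45, but 1072 without array 2, against 1166 with all arrays.

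**Figure D2:**
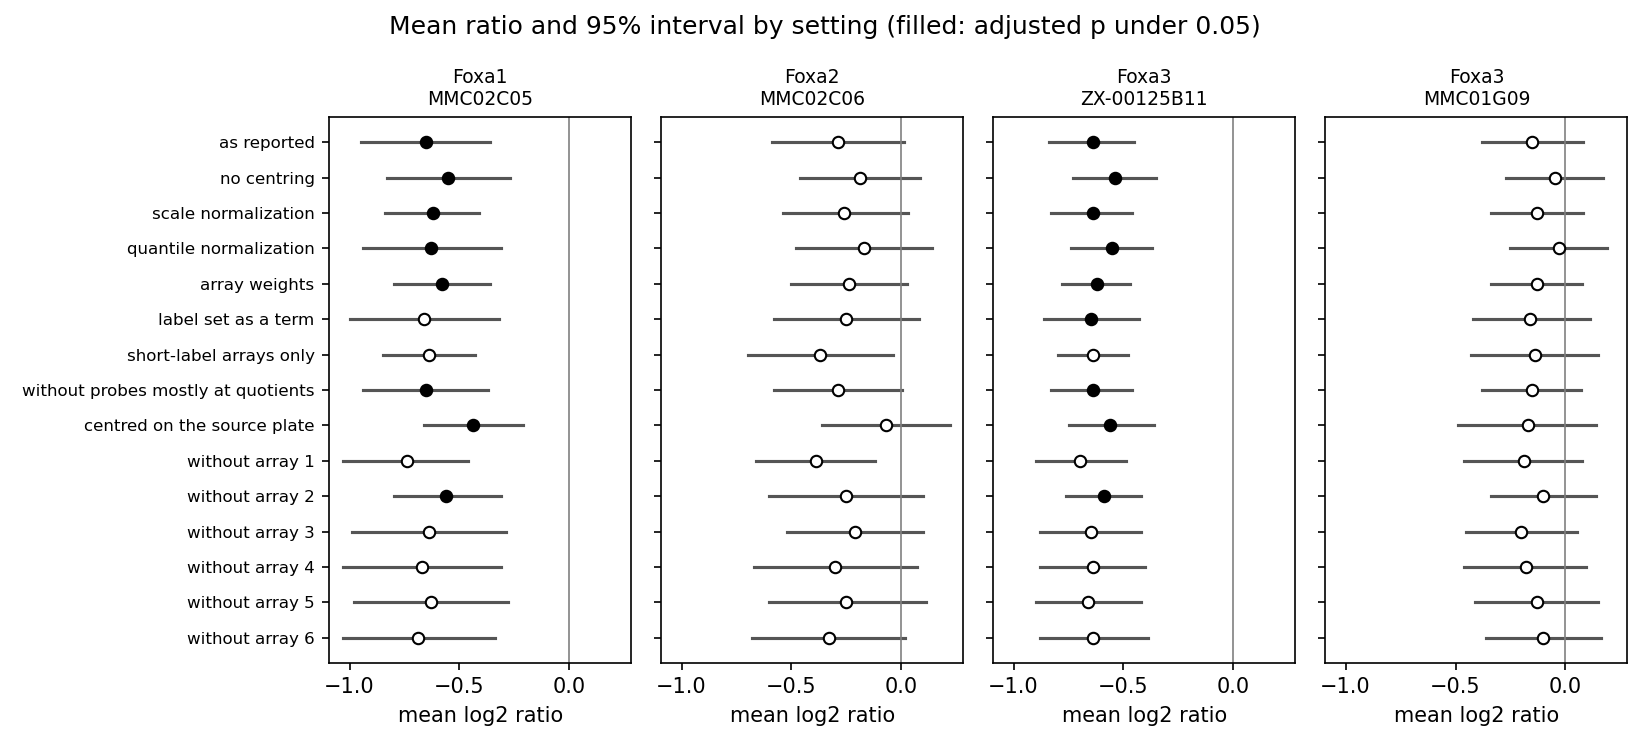
Mean log2 ratio (horizontal axis, point) with limma's 95% interval (line) of each Foxa probe under 15 settings, filled where the adjusted p was under 0.05. The Foxa1 and ZX-00125B11 intervals stayed under 0 in the settings drawn, while filled points were lost when arrays 1, 3, 4, 5 or 6 were left out.

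Read from the probe names, the Foxa1 and Foxa2 probes came from adjacent wells, C05 and C06, of 1 source plate, and the wells around them served as a measure of position. On array 2, all 11 other probes of that plate row were under 0, with a median of -0.84 beside the Foxa1 value of -1.15 and a median of -0.91 beside the Foxa2 value of -0.47. On the other arrays the row medians beside Foxa1 lay between -0.23 and 0.13. The Foxa1 mean was lower than that of each other probe in its row, where the median of the means was -0.16. On the whole plate the median of the means was -0.15, and 9.89% of the other tested probes were past the threshold under 0.

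The Foxa3 probe ZX-00125B11 came from a different plate, whose median of means was -0.0659. It too had the lowest mean of its row, among 23 other probes with a median of -0.0419. Its neighbours in wells B10 and B12 had means of -0.48 and 0.0556. On that plate 8.09% of the other tested probes were past the threshold under 0. The other Foxa3 probe, MMC01G09, came from a plate with a median of means of 0.13, where 4.23% of the other tested probes were past it under 0. Its row had a median of -0.77 on array 2, where the probe itself was at -0.39.

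When every probe on the array was centred on the median of its source plate instead of the array, an alternative chosen after seeing the data, Foxa1 moved to -0.44 (limma adjusted p 0.0498). Its values then were -0.068, -0.68, -0.58, -0.41, -0.54 and -0.34 on arrays 1 to 6, still all under 0. Foxa2 moved to -0.0704 (limma adjusted p 0.736), and the Foxa3 probes to -0.56 (adjusted p 0.0252) and -0.17 (adjusted p 0.437). In that fit 3.25% of all probes were past the threshold under 0. Of the Foxa2 ratio, little was thus left relative to its plate, while ZX-00125B11 kept most of its ratio. The row of Foxa1 and Foxa2 also holds probes of Pdx1, Pax4, Pax6 and Mafa, other factors of the pancreas, so that position and kind of gene cannot be told apart in it.

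**Figure D3:**
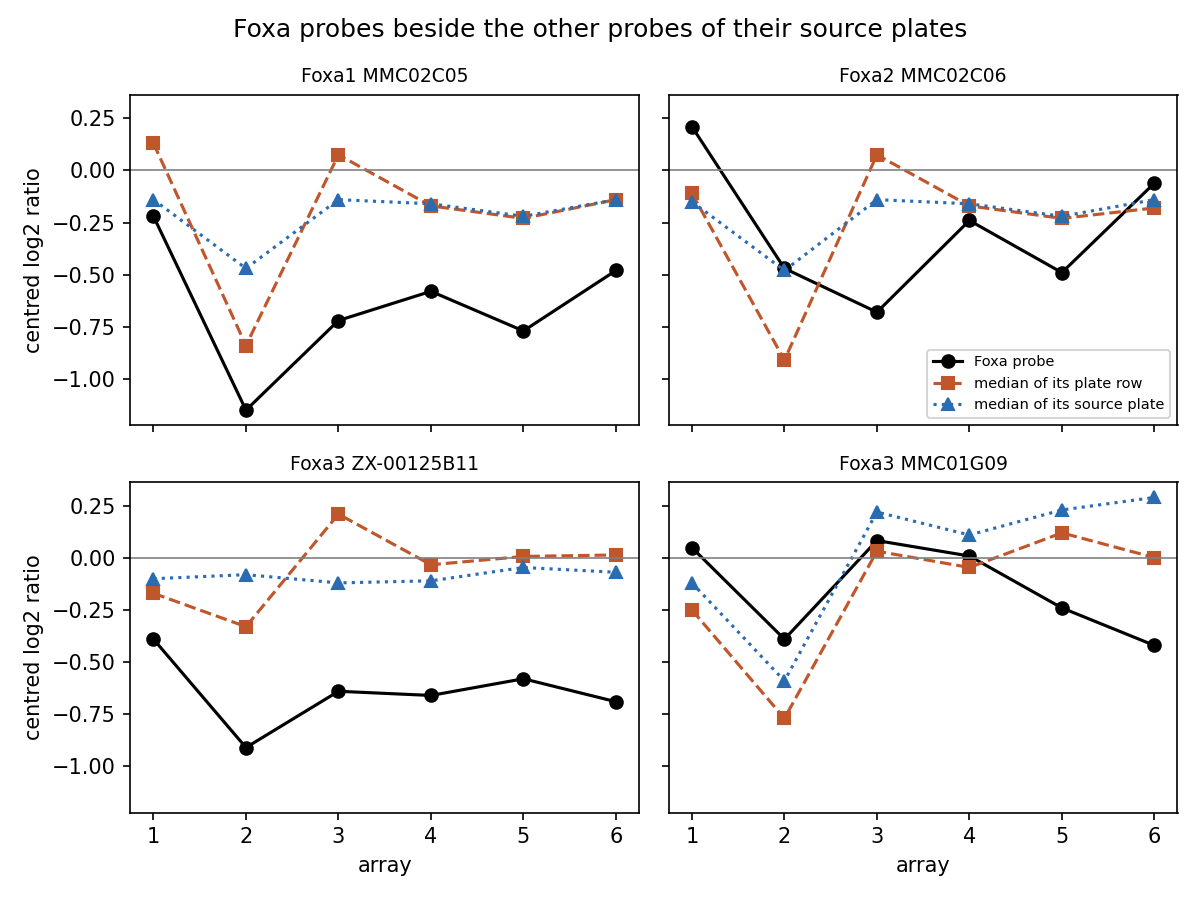
Centred log2 ratio (vertical axis) of each Foxa probe (black) on arrays 1 to 6, with the median of the other probes in its plate row (orange squares) and on its source plate (blue triangles). On array 2 the row medians beside Foxa1 and Foxa2 fell to -0.84 and -0.91, while the Foxa3 probe ZX-00125B11 lay under its row and plate on every array.

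A further property bears on how firmly single values can be read. Ratios of small whole-number signals take few distinct values, and 22.6% of all tested values equalled quotients of whole numbers up to 20 within 6e-04 in log2. Of the 6 values of each probe, 3 did so for Foxa2 and 1 for Foxa1 and for each Foxa3 probe. A ratio of larger signals can also fall on such a quotient, and how often this happens was not measured. When probes mostly at such quotients were left out, the fit covered 18697 probes and the limma adjusted p was 0.0271 for Foxa1 and 0.0139 for ZX-00125B11. Their own values and means (-0.65 and -0.64) were the same in that fit. It therefore does not bear on how firmly the values of these probes can be read.

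Transcription factors that work with Foxa proteins in endoderm were represented by 5 of 14 listed genes, of which 1 was past the threshold under 0 and 1 above 0. Over the 10818 named genes with a tested probe, 5.0% had a probe past it under 0 and 3.25% above 0. Nr5a2, an orphan nuclear receptor that acts in acinar differentiation, had ratios from -1.32 to -0.39, under 0 on 6 of 6 arrays. Its mean was -0.91 ± 0.36 (SD, n = 6, limma adjusted p 0.0302), with -0.49 on arrays 1 and 2 and -1.12 on arrays 3 to 6. With plate centring the Nr5a2 mean was -0.62 (limma adjusted p 0.0347). Hhex, a homeobox factor of liver and ventral pancreas, lay on the other side at 1.30 ± 0.55 (n = 5; adjusted p 0.0368), but all 5 of its values were quotients of small whole numbers. Its value on the remaining array was the ceiling value, and with that value kept the mean was 3.82 and the call was lost (limma adjusted p 0.321), as it was with the array set as a term (0.0528). Onecut1, an activator of endocrine and hepatic genes, was at 0.46 ± 0.82 (n = 5), and Sox17, of early endoderm, at 0.47 ± 0.46 and 0.35 ± 0.27. Prox1 was at 0.59 ± 1.06 (n = 5) and 1.12 ± 1.16 (n = 4), and none of these was past the threshold. The median of the gene means was 0.46, the Onecut1 value, against 0.0466 over the 10818 tested genes. Of the 5 gene means 1 was under 0, the side of Foxa1. With such spreads the arrays do not settle on which side these factors lay as a group.

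Among genes known from mouse pancreas or islet work as Foxa targets, 6 of 11 listed were measured. Against 5.0% of tested named genes past the threshold under 0 and 3.25% above 0, 1 of the 6 was past it under 0 and none above 0. That gene was Neurog3, the factor that starts endocrine differentiation, at -0.73 ± 0.17 at probe ZX-00126H08 (n = 6; limma adjusted p 0.0203) and -0.32 at its other probe. Pdx1, which needs Foxa1 and Foxa2, was measured at 3 probes with means of -0.16, 0.0457 and 0.10 and was past the threshold at none. Its probe in well C07, next to Foxa2, was at -1.03 on array 2. Mafa, an insulin gene activator, had means of -0.40 and -0.80, Hadh, an enzyme of fatty acid oxidation that restrains insulin release, was at -0.24, and Gcg, for glucagon, was at 0.27, 0.000917 and -0.0291. Nkx2-2, a homeobox factor of endocrine cells, had means of 1.04 (n = 4), 0.33 and -0.16, the last under 0 on 6 of 6 arrays, and none past the threshold. Of the 6 gene means 4 were under 0, and their median was -0.12, between a lowest of -0.60 and a highest of 0.40. Both Mafa probes and some probes of Pdx1, Neurog3 and Nkx2-2 came from the source plate of Foxa1 and Foxa2. The median of means on that plate was -0.15, and its part in the list median was not tested.

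Hepatic genes with classical Foxa sites were represented by 3 of 14 listed, all with gene means under 0 (median -0.29). Of these, 1 was past the threshold, against 5.0% of tested named genes past it under 0. Afp, a plasma carrier made by fetal liver and yolk sac, was past it at 3 of 4 probes, the lowest at -2.06 ± 0.22 (n = 6; limma adjusted p 0.00141), with the remaining probe at 0.00592. Alb, for albumin, was at -0.29 ± 0.12 (limma adjusted p 0.0622) and Ttr, for the thyroid hormone carrier transthyretin, at -0.21 and -0.18, neither past it. The lowest Afp ratio was thus larger in size than any Foxa ratio.

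Markers of other cell types were set beside these values. Of 9 measured liver markers, 6 passed with means under 0 and 0 with means above it, against 5.0% and 3.25% of tested named genes. The median of gene means was -0.64, with medians between -0.81 and -0.49 on single arrays. Afp, Alb and Ttr, given above as Foxa targets, are among these 9, so the 2 lists are not separate evidence. Those that passed also included Ambp (-0.77), Fgb (-1.12) and Fgg (-1.14), which encode plasma proteins. Liver cells also express Foxa genes. Of the 9 gene means of liver markers 8 were under 0, the side of Foxa1 and the Foxa3 probe ZX-00125B11, while Hpx was at 0.0318. Vtn passed at 1 probe (-0.94), with its other probe at -0.0566. The part of these markers in the Foxa ratios was not tested. None of 3 epithelial markers passed, the one with the smallest p being Cldn7, a tight junction protein, at 0.35 ± 0.29 (limma adjusted p 0.11). The other Cldn7 probes were at 0.85 (n = 4) and 0.0198. The median of the epithelial gene means was -0.00708, between -0.12 and 0.50 on single arrays. Shh, the 1 measured marker of notochord and floor plate, where Foxa2 is also active, was at -0.0461 ± 0.79 (n = 5) and changed sign between settings. The Shh probe came from the same plate row as Foxa1 and Foxa2.

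None of 6 stomach and intestine markers passed, with Muc5ac at 0.91 (n = 4), and none of 3 endothelial ones, with Sox7 at -0.32. Of 5 mesenchyme markers 1 passed under 0, Sparc at -0.31, and of 5 erythroid markers 1 passed above 0, Hba-a1 at 0.40 at 1 of 17 probes. Of 5 leukocyte markers 1 passed on each side, C1qa at -0.40 and Cd53 at 0.71. Of the 5 values of Cd53 4 were quotients of small whole numbers, and with the ceiling value of the remaining array kept its mean was 3.34 and the call was lost (limma adjusted p 0.394). Of 5 neuronal markers Tubb3 (0.39) and Elavl4 (0.90) passed above 0 and Ncam1 (-0.38) under 0. Tubb3 passed at 1 of 3 probes, with another at -0.0498, and its call was lost with plate centring (0.23; limma adjusted p 0.106). Elavl4 passed at 1 of 4 probes, measured on 4 arrays, with another at -0.0174. The 8 measured pancreatic progenitor factors include Pdx1, Onecut1, Nr5a2 and Prox1, already given as partners or targets. Nr5a2 alone passed, and the median of the 8 was 0.0945, between -0.17 and 0.11 on single arrays. The medians of these 7 lists lay between -0.11 and 0.24. Over the tested named genes, 5.0% had a probe past the threshold under 0 and 3.25% above 0.

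Other forkhead genes were measured at 9 genes, and 1 of them was past the threshold, under 0, against 5.0% of tested named genes. This was Foxp1, a repressor of wide expression, at -0.30 ± 0.09 at probe PX-00629H22 (n = 6; limma adjusted p 0.0488), while its other probes were at 0.76 and 0.30. With plate centring the call was lost (-0.18; limma adjusted p 0.133). Foxo3, a target of insulin signalling, had 1 probe on each side of 0, at 0.22 and -0.22, and the 4 Foxk2 probes ran from -0.21 to 0.50. Foxi1, Foxs1 and Foxp2 had means of 0.58, 0.51 and 0.32, and Foxn2, Foxn3 and Foxp4 of -0.14, 0.0253 and -0.0399, none past the threshold. The median of the 9 gene means was 0.15, against gene means of -0.65, -0.40 and -0.29 for Foxa1, Foxa3 and Foxa2.

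**Figure D4:**
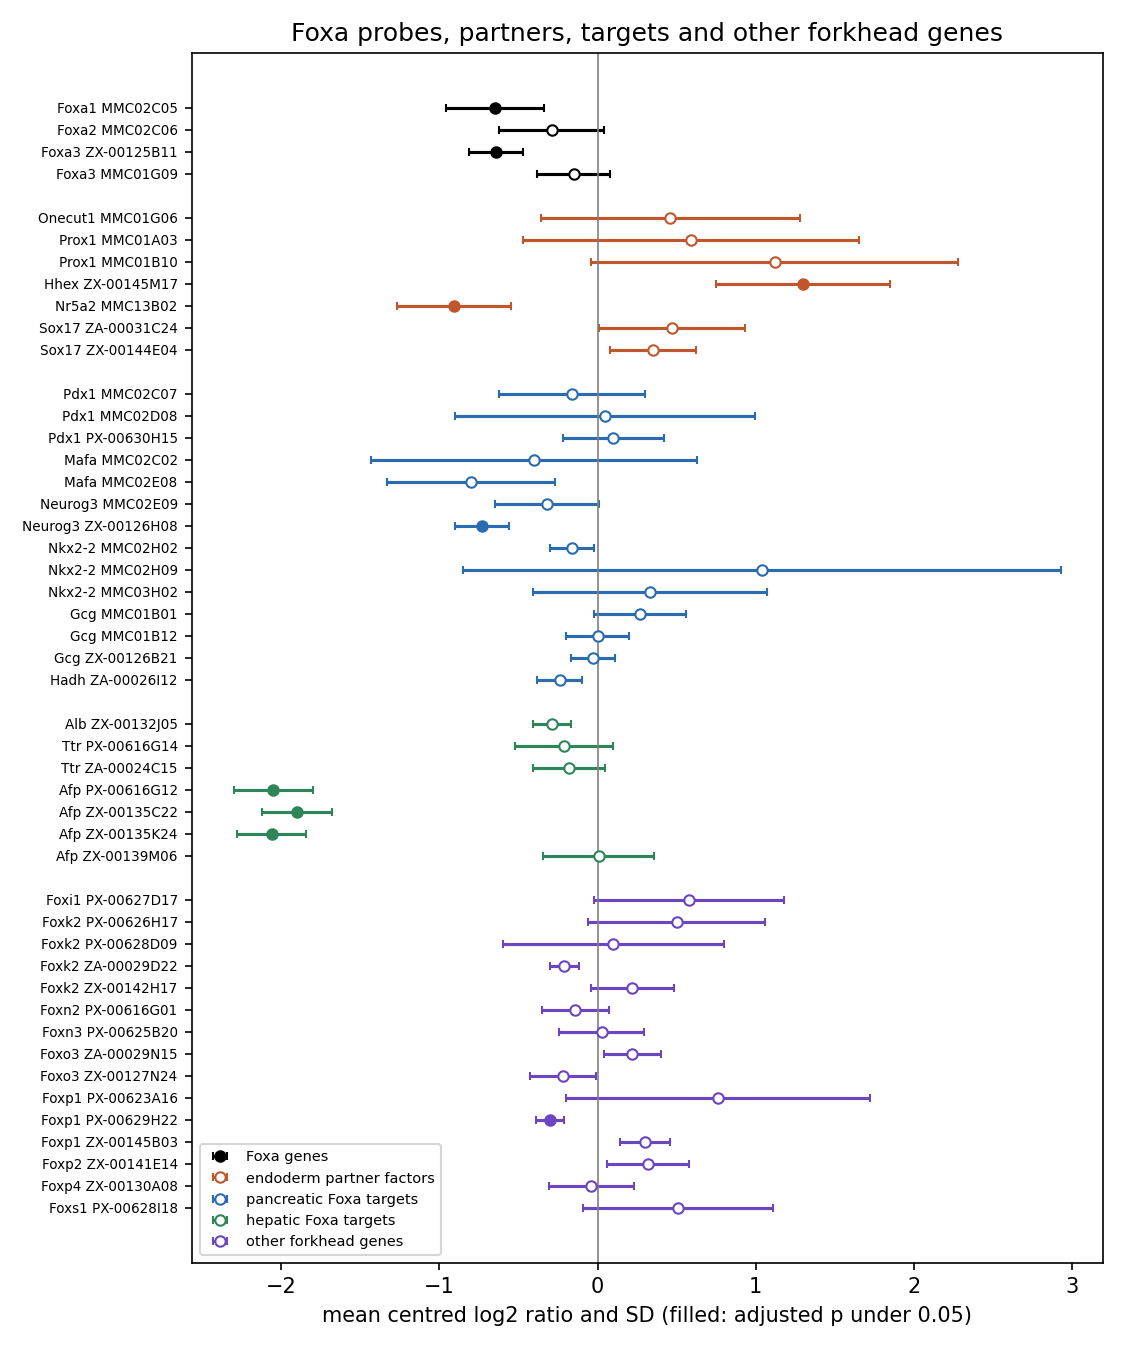
Mean centred log2 ratio and SD (horizontal axis) of each probe of the Foxa genes, their endoderm partners, pancreatic and hepatic targets and other forkhead genes, filled where the limma adjusted p was under 0.05. Foxa1 and ZX-00125B11 lie at -0.65 and -0.64, the partner factors spread from -0.91 for Nr5a2 to 1.30 for Hhex, and 3 Afp probes lie near -2.

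The probes most like each Foxa gene were found by the root mean square difference of log2 ratios over the 6 arrays, among 15551 probes with 1 gene symbol. Nearest to Foxa1 were 9030622O22Rik at a difference of 0.101, Tmem116 at 0.114 and Trappc2, a subunit of a vesicle-tethering complex, at 0.119. Nearest to the Foxa3 probe ZX-00125B11 were Eps15, an endocytic adaptor, at 0.0807, Tesc, a calcium-binding protein, at 0.0947 and again Tmem116, at 0.109. Tmem116 had other probes that reached 0.10, so its likeness rests on 1 of 3 probes. Nearest to Foxa2 were Mrps18b, of the mitochondrial ribosome, at 0.148, Wdr12, of ribosome assembly, at 0.16 and Ergic2, of the early secretory pathway, at 0.163.

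Foxa1 and the Foxa3 probe ZX-00125B11 differed from each other by 0.174, and 17 of the 15551 probes were closer to Foxa1 than that Foxa3 probe was. The Foxa2 probe, from the well beside it, was at 0.413 from Foxa1, with 830 probes closer. The Foxa3 probe MMC01G09 was at 0.567 from Foxa1, with 2989 probes closer, and at 0.52 from the other probe of its own gene. For Foxa3, ZX-00125B11 was used because it had the smaller limma p, so its closeness to Foxa1 was partly set by that choice. This measure takes in the mean as well as the pattern over arrays, and all probes share the same hybridisations.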

How the data were processed

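Pancreas RNA of 6 arrays with 2 channels was used, in 1 group of knockout over wild-type ratios, with samples assigned by their titles. The authors deposited 1 log2 ratio per probe and array. Its base was set by the ceiling value, and no source used here gives scanner, background correction, normalization or dyes. The ceiling value was treated as missing (40 to 257 probes per array). Signal over background is unknown, and the number of arrays limits the precision. Symbols of 17786 probes were looked up by Entrez ID in RefSeq's gene table (GRCm38.p6), and 602 kept the platform's symbol. Arrays were centred on their medians, which were -0.007 to 0.198 as deposited, and tested with limma 3.58.1 in R 4.3.3 (intercept only, two-sided, adjusted over all probes), a step tested on simulated data. Alternatives changed centring, scaling, filters, weights and the arrays used. Figures were drawn with matplotlib 3.10.9.

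Named were all Foxa and Sox4 probes, up to 4 genes per list past the threshold or the 1 with the smallest p, and the 3 probes most like each Foxa gene. Other partners, targets and forkhead genes, and the wells beside Foxa probes, were named after their values were seen. The members and lists were chosen with earlier results of these data known.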

Additional observations from a re-analysis of the deposited data

Results flagged for a closer look

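Each of 28 results was searched for 1 outlying array by Dixon's test: the Foxa and Sox4 probes, the differences between Foxa genes and the named list genes. About 1 in 20 stands out by chance. No Foxa probe stood out, and 3 other probes did. For Sox4, array 3 gave -0.35 at MMC03H11, where the remaining arrays spanned -0.10 to 0.002. For Fgb, array 2 gave -0.60 at ZX-00135H16, where the remaining arrays spanned -1.28 to -1.08. For Sparc, array 1 gave -0.15 at ZA-00026J22, where the remaining arrays spanned -0.36 to -0.30.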

How the results depend on the processing

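The Foxa1 mean and the means of both Foxa3 probes and of Foxa2 were under 0 under every alternative run. Besides arrays left out, Foxa1 was past the threshold in 11 of 14 alternatives and ZX-00125B11 in 12. The 12 count the fit with 1 value per gene, which tested the mean of both Foxa3 probes rather than ZX-00125B11 itself. Foxa1 was not with the array set as a term (-0.66), and neither was with arrays 3 to 6 (both -0.64) or with arrays 1 and 2 alone (-0.69 and -0.65). MMC01G09 passed only as part of the Foxa3 gene mean (-0.40). Leaving out each array in turn gave -0.74 to -0.56 for Foxa1, -0.70 to -0.59 for ZX-00125B11, -0.39 to -0.21 for Foxa2 and -0.20 to -0.10 for MMC01G09. The difference between the Foxa3 probes was -0.38 with plate centring, -0.50 on arrays 3 to 6 and -0.54 to -0.45 with 1 array left out, where the exact test cannot go under 0.0625 (0.125 with 4 arrays). The differences between genes ran from -0.43 to -0.30, -0.32 to -0.21 and -0.21 to -0.0332 (Foxa1 minus Foxa2, Foxa1 minus Foxa3, Foxa3 minus Foxa2) with 1 array left out and kept their sign. Over the other alternatives they ran from -0.45 to -0.27, -0.34 to -0.00967 and -0.36 to -0.0228. The value nearest to 0 came from the probes with the smallest p for Foxa1 minus Foxa3 and from arrays 3 to 6 for Foxa3 minus Foxa2.

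The number of probes past the threshold was 1166 as reported, 1786 with scale and 1789 with quantile normalization, 2752 with array weights, 695 with the set term, 619 genes with 1 value per gene, 13 on arrays 3 to 6 and 0 on arrays 1 and 2 (limma; 2953 at an unadjusted p under 0.05), and 10 to 1072 with 1 array left out. The cause was not tested. Without centring, 67.5% of calls were above 0, and with quantile normalization 72.6%, against 35.7%. The median of all probes was then 0.13 rather than 0.0264, and Foxa1 was at -0.55 and -0.63. Of 15 named list probes past the threshold, 1 to 2 stayed past it without array 1, 3, 4, 5 or 6 and 10 without array 2. With the set term 8 of 15 stayed, without centring 11 (Foxp1, Sparc, C1qa and Ncam1 were lost), with the ceiling kept, plate centring or quantile normalization 12 each, and of 14 measured 2 on arrays 3 to 6 and 0 on arrays 1 and 2.

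Sox4 and Shh, near 0, changed sign. Sox4 MMC02H11 was at 0.0778 (no centring), 0.0636 (quantile), 0.0123 (set term), 0.13 (arrays 1 and 2), 0.19 (plate centring) and -0.11 to 0.0397 with 1 array left out. Sox4 MMC03H11 was at 0.0118 (no centring) and 0.015 (quantile). Shh was at 0.05 (no centring), 0.0334 (quantile), 0.0259 (weights), 0.24 (arrays 3 to 6), 0.19 (plate centring) and -0.38 to 0.15 with 1 array left out. Both RNAs were on each array, so each ratio already compares them within 1 array, and no further pairing was used.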
